A study of Mus musculus with 4 samples.

Results

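The genes of TGF-beta, BMP and activin signalling were followed in mouse lungs with reduced Fgf8 shortly before birth. They comprised 51 genes, taken by their name in the array's design from the 28478 named genes on the array. They were sorted by role into ligands, receptors, extracellular regulators, Smads and target genes. Together they carried 80 probes, of which 69 were tested, and 47 of the 51 genes had a tested probe.

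The hypomorph lungs came from fetuses of genotype Fgf8H/- and the wild type lungs from Fgf8+/+ littermates, all at E18.5 and on a strain background labelled c57nl7/sv129. Fgf8 is a secreted fibroblast growth factor. Lobes had been cut away from large airways and vessels before RNA was made. The sample titles write the mutant as AP/N, letters the labels leave unexplained. Each pool held RNA of 3 lungs. On every one of the 4 arrays a hypomorph pool carried the Cy5 dye and a wild type pool the Cy3 dye, which gave 4 pools of each genotype. With this one dye orientation, a dye effect on a probe and a difference between genotypes cannot be told apart. Ratios are the log2 hypomorph signal minus the log2 wild type signal on an array, given as mean ± SD. A gene was read by its brightest tested probe and called at an adjusted p under 0.05, from limma with Benjamini-Hochberg adjustment over all 30008 tested probes.

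TGF-beta family ligands bring together type 1 and type 2 receptor kinases at the cell surface, and these phosphorylate Smad proteins that enter the nucleus with Smad4. TGF-beta and activin ligands act mainly through Smad2 and Smad3, and BMPs through Smad1, Smad5 and their relatives, while Smad6 and Smad7 dampen the signal. In the developing lung, Bmp4 is made at the tips of growing airways, TGF-beta restrains branching and drives matrix production, and secreted antagonists limit how far the ligands act.

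Of all 20623 genes tested, 13.6% were called higher and 13.0% lower in hypomorph lungs, 26.6% in either direction. Of the 47 tested pathway genes, 5 (10.6%) were called higher and 11 (23.4%) lower, and 31 were not called. Their median ratio was -0.04, against -0.004 over all tested genes. Where each array was centred on its median in place of loess, the median of all genes moved to 0.13 and the calls over all genes were 8377 higher and 2480 lower, against 2805 higher and 2681 lower with loess. The pathway calls were then 22 higher and 6 lower. Fgf8 was at -0.18 ± 0.11 (n = 4) and was not called (adjusted p = 0.0572, limma), and the labels do not say which part of the gene its alleles change. It was called lower under 4 of the 17 alternatives, the scanner's processed signals, the series table, no background correction and scaling between arrays, with ratios between -0.25 and -0.17 (adjusted p between 0.0385 and 0.0486). The series table holds the same ratios as the processed signals, so these are not separate alternatives. On each array, between 32491 and 34519 spots were well above background in a channel.

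Promoter sequences were set beside the 3 genes with the lowest ratios, Amhr2, Inhbb and Gdf10, and Id3, a textbook BMP target. Each runs 5′ to 3′ on the gene's strand over 300 bases that span the gene's start, from RefSeq in build GRCm38.p6. These are chr15:102445117-102445416 on the plus strand for Amhr2, chr1:119422199-119422498 on the minus strand for Inhbb, chr14:33923337-33923636 on the plus strand for Gdf10 and chr4:136143572-136143871 on the plus strand for Id3. Capitals mark CAGAC or its reverse complement GTCTG, the short motif bound by Smad3 and Smad4, and GGCGCC, a GC-rich motif bound by Smad proteins. Both strands were searched and no match of one motif overlapped a match of the other in these windows.
Amhr2: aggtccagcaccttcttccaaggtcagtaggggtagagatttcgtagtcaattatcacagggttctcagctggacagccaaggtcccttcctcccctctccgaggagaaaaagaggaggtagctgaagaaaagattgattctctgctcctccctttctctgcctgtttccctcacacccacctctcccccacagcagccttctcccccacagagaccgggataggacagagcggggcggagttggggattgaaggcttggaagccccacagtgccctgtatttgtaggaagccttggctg
Inhbb: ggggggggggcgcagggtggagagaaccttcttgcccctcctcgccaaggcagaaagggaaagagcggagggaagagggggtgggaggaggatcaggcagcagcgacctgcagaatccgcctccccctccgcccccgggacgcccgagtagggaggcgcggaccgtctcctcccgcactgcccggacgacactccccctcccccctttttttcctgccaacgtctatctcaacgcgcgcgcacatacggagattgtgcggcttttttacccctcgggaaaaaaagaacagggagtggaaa
Gdf10: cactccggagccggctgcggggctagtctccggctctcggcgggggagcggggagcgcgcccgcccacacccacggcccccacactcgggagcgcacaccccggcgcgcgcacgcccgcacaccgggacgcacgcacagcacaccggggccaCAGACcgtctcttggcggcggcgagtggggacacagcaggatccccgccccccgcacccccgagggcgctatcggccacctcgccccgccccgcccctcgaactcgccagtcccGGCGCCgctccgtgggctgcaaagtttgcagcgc
Id3: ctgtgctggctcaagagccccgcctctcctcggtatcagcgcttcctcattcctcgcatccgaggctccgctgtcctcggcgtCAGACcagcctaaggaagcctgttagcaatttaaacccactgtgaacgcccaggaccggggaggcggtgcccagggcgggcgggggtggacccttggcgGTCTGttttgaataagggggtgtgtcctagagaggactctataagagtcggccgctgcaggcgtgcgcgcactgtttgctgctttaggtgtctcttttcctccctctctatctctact
The Amhr2 and Inhbb windows held neither motif, the Gdf10 window held 1 of each and the Id3 window held CAGAC 2 times, counting both strands. Over all 32851 promoters of the same length, 49.6% held CAGAC on either strand and 11.9% held GGCGCC. Of the 37 pathway genes with a promoter entry, 20 held CAGAC and 11 held GGCGCC in at least 1 of their windows. Some of these genes had several windows, so the gene counts and the shares per promoter are in unlike units. Among the 11 called genes with an entry, the counts were 6 and 3. A match describes letters in the window and is not a measured binding site.

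Among the 15 ligand genes, 1 was called higher and 4 lower in hypomorph lungs, against 13.6% higher and 13.0% lower of all genes. The calls were 4 higher and 2 lower with median centring, and none higher and 3 lower with the processed signals. Without replicate 2 or 4, where 13 ligands were tested, they were none higher and 1 lower. Of all genes, 52.6% were called in either direction with median centring and 19.9% with the processed signals. Without replicate 2 or 4 the shares of all genes were 6.74% and 18.4%. The lower ones were the activin and inhibin subunit Inhbb, the related BMP-type ligands Bmp3 and Gdf10, and Bmp2. The single ligand called higher was Tgfb1, the TGF-beta isoform best known for immune regulation and fibrosis. The median ratio over the 15 was -0.03. It was 0.01 with the scanner's processed signals and 0.11 with median centring, where the median of all genes was 0.13. Without replicate 1 or 4 it was 0.02 in both cases, over the 13 ligands tested there. Bmp3 and Tgfb3, both below 0 with all arrays, were not tested in those fits.

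Inhbb encodes the beta B subunit, which pairs to form activin B or joins the alpha subunit in inhibin B. Its log2 signal after scaling between arrays was 10.40, 10.14, 10.48 and 10.63 in the hypomorph pools, against 10.86, 10.71, 10.98 and 10.97 in the wild type pools. Every hypomorph pool lay below every wild type pool. The ratio was -0.47 ± 0.10 (n = 4, adjusted p = 0.0037, limma), a 1.38-fold lower level. This probe lies at chr1:121243052-121243111 in build mm8. The gene's other probe was at -0.07 ± 0.07 and was not called (adjusted p = 0.282). That probe was dim, with a mean log2 brightness over both channels of 6.72, against 10.65 for the brightest probe. The alpha subunit Inha was at -0.06 ± 0.17 and the beta A subunit Inhba at -0.15 ± 0.09, neither called (adjusted p = 0.530 and 0.0760, limma).

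Gdf10, also known as Bmp3b, read 10.06, 9.64, 10.03 and 9.64 in the hypomorph pools, against 10.19, 10.12, 10.61 and 10.25 in the wild type pools. The groups did not overlap, and the gap was narrow: on replicate 1 the ratio was -0.12, against -0.49, -0.58 and -0.62 on the others. The mean was -0.45 ± 0.23 (n = 4, adjusted p = 0.0168, limma). Bmp3, its closest relative and a BMP that opposes other BMPs, read 10.70, 10.44 and 10.77 in the hypomorph pools, against 11.05, 10.89 and 11.08 in the wild type pools of replicates 1, 2 and 4. Its ratio was -0.37 ± 0.08 (n = 3, adjusted p = 0.0121, limma), because the scanner software had marked the spot on replicate 3. All 3 hypomorph pools lay below the wild type pools. With median centring it was at -0.15 and was not called.

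Bmp2, a BMP ligand of bone, heart and vessel development, had ratios of -0.16, -0.38, -0.12 and -0.28 on the 4 arrays. They were all below 0, with a mean of -0.23 ± 0.12 (n = 4, adjusted p = 0.0313, limma), although the pools of the 2 genotypes overlapped in signal. Tgfb1 had ratios of 0.33, 0.20, 0.16 and 0.12, with a mean of 0.20 ± 0.09 (n = 4, adjusted p = 0.0350). All 4 arrays lay above 0, and replicate 1 was highest. Tgfb2 was at 0.12 ± 0.07 and Tgfb3 at -0.14 ± 0.06 (n = 3), neither called (adjusted p = 0.109 and 0.110, limma).

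The remaining ligands, Bmp4, Bmp5, Bmp6, Bmp7, Gdf11 and Gdf15, were not called and had ratios between -0.03 and 0.08. Bmp4 had the highest of them, 0.08 ± 0.03, with a 95% interval of 0.04 to 0.13 from its own 4 ratios and an adjusted p of 0.170 (limma). Its hypomorph pools read 12.57, 12.61, 12.62 and 12.57, against 12.52, 12.53, 12.50 and 12.49 in the wild type pools. All 4 hypomorph pools thus lay above the wild type pools by a small margin. The other probes of Bmp5, Bmp6 and Bmp7 were not called either.

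**Figure D1:**
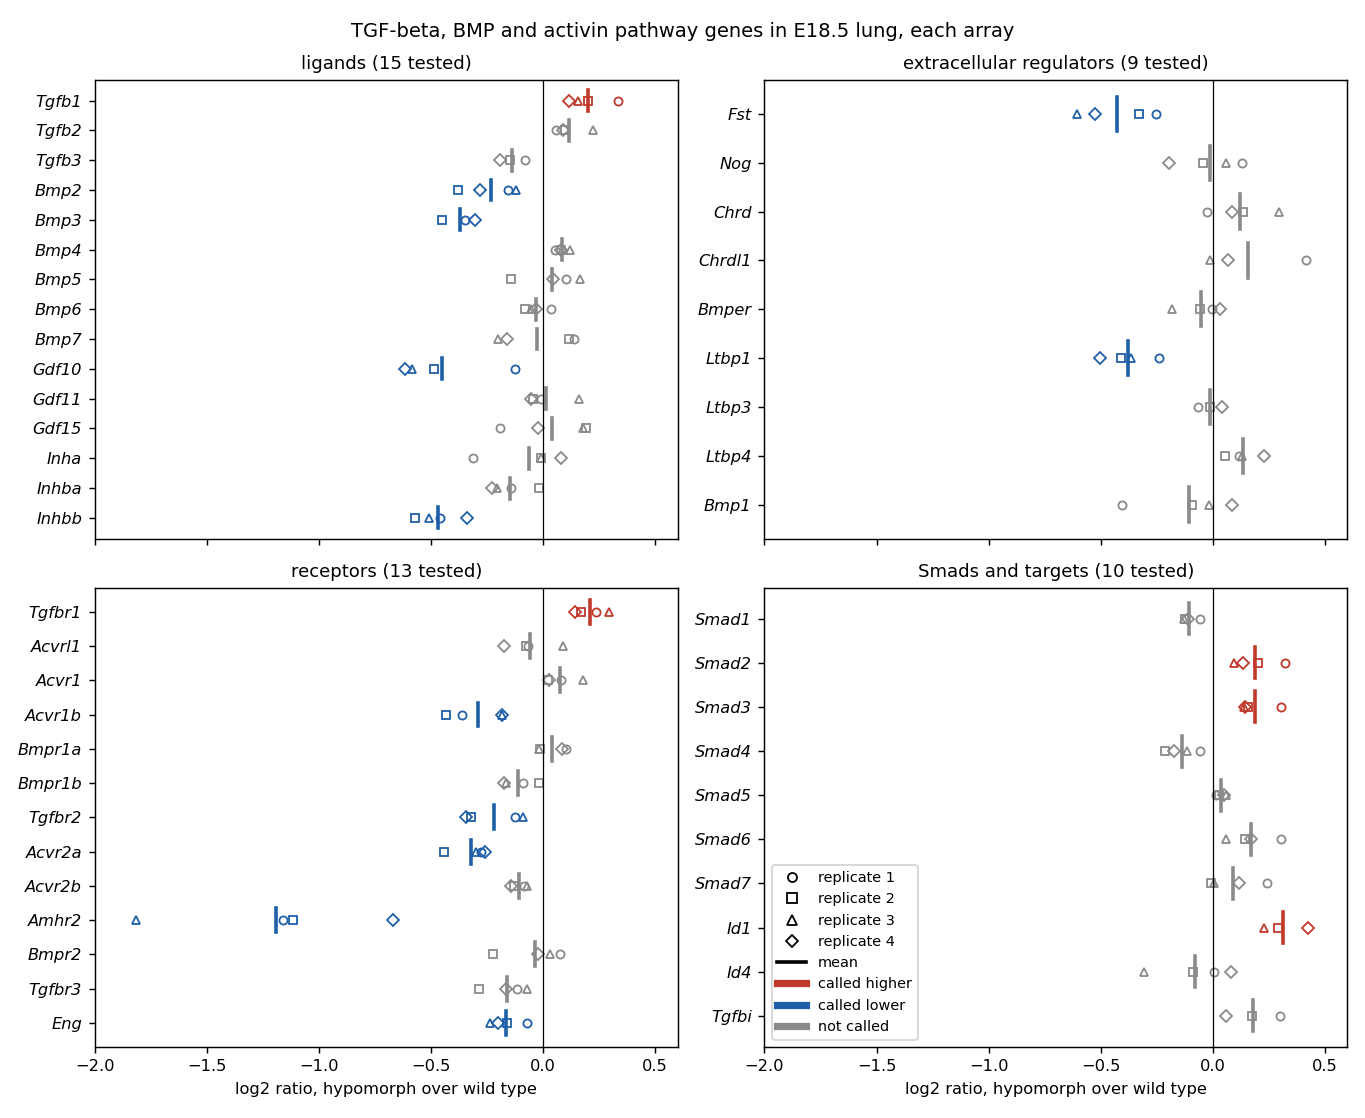
Log2 ratio of hypomorph over wild type on each of the 4 arrays (symbols) and its mean (bar) for the 47 tested pathway genes, by role, with called genes in colour. Amhr2 lies furthest from 0, at -1.19, and the other means lie between -0.5 and 0.4.

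Among the 13 receptor and co-receptor genes, 1 was called higher and 5 lower (38.5% lower, against 13.0% of all genes). The calls were 6 higher and 2 lower with median centring, 1 higher and 2 lower with the processed signals, and none higher and 1 lower without replicate 2. In the same order, these fits called 52.6%, 19.9% and 6.74% of all genes in either direction. The lower ones were the type 2 receptors Amhr2, Acvr2a and Tgfbr2, the type 1 receptor Acvr1b and the co-receptor Eng. The type 1 receptor Tgfbr1 was called higher. The median over the 13 was -0.11 and was below 0 under each alternative except median centring. That gave 0.06, where the median of all genes was 0.13.

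Amhr2, the type 2 receptor for anti-Mullerian hormone, which drives regression of the Mullerian ducts in male fetuses, had the lowest ratio of all 47. Its log2 signals were 10.60, 10.66, 10.01 and 10.80 in the hypomorph pools, against 11.77, 11.77, 11.83 and 11.47 in the wild type pools. All hypomorph pools lay below all wild type pools, and replicate 3 held both the lowest hypomorph and the highest wild type value. The ratios were -1.16, -1.12, -1.82 and -0.67, with a mean of -1.19 ± 0.47 (n = 4, adjusted p = 0.0072, limma). This is a 2.28-fold lower level. The probe lies at chr15:102282533-102282592 in build mm8, and the gene had 1 probe.

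Mesothelial markers, genes of the cell layer that covers the lung, were lower on the same arrays. Of 6 such genes, 5 were called lower, against 13.0% of all genes, and the median ratio of the 6 was -0.55. Lrrn4 was at -0.69 ± 0.25, Upk1b at -0.68 ± 0.31 and Wt1 at -0.45 ± 0.20 (n = 4, adjusted p = 0.0064, 0.0111 and 0.0133, limma). Msln was at -0.65 ± 0.25 (n = 3, adjusted p = 0.0125) and Muc16 at -0.39 ± 0.19 (n = 4, adjusted p = 0.0171), while Upk3b was at 0.00 ± 0.17 and was not called (adjusted p = 0.991). Amhr2 and the marker median, which was -0.48, -0.39, -0.61 (5 markers, without Msln) and -0.43 by array, were both lowest on replicate 3. Their highest arrays differed, replicate 4 for Amhr2 and replicate 2 for the marker median. The summed signal of the 5 markers with values on every array ran between 8932 and 12250 in the hypomorph pools and between 11660 and 13190 in the wild type pools, with overlap. Upk3b alone made up 53.3% of that sum. Without it, a choice made after seeing the data, the sum of the other 4 ran between 3785 and 4641 in the hypomorph pools and between 6081 and 6860 in the wild type pools, with no overlap. All 6 were well above background on 4 arrays in both channels, and their part in the Amhr2 result was not tested. In pooled tissue, fewer cells of a type and less RNA per cell cannot be told apart. Without replicate 2, Upk1b missed the threshold (adjusted p = 0.0590, limma), and so did Muc16 without replicate 3 or 4 (adjusted p = 0.0607 and 0.0582). For Msln the only fit possible with an array left out removed replicate 3, where it had no value. With median centring Msln was at 0.12, on the other side of 0.

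**Figure D2:**
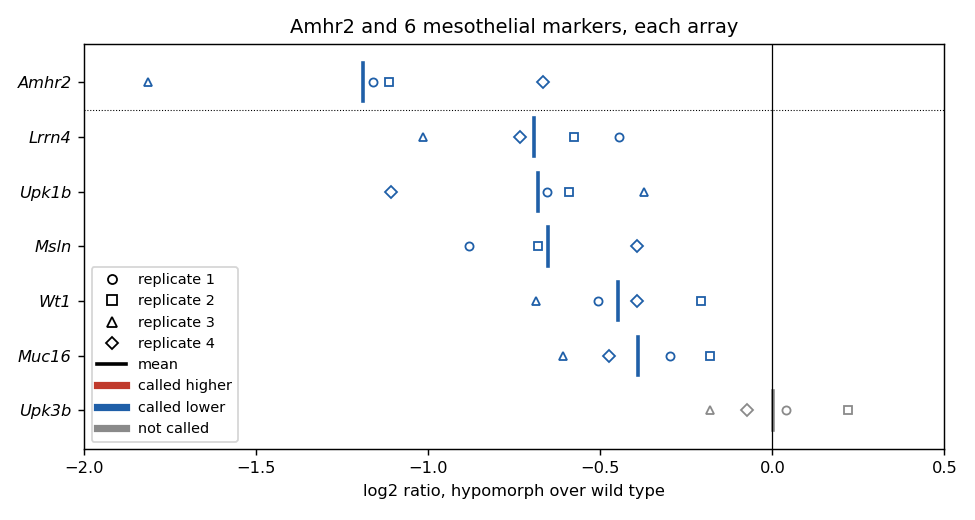
Log2 ratio of hypomorph over wild type on each array (symbols) and its mean (bar) for Amhr2, above the dotted line, and 6 mesothelial markers below it. Amhr2 and 5 of the 6 markers have means below -0.3, while Upk3b sits at 0.00.

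The activin receptors Acvr2a and Acvr1b, which bind as a type 2 and type 1 pair, were both called lower. Acvr2a read 8.84, 8.68, 8.67 and 8.85 in the hypomorph pools, against 9.12, 9.12, 8.97 and 9.11 in the wild type pools. The genotypes did not overlap, and the ratio was -0.32 ± 0.08 (n = 4, adjusted p = 0.0084, limma). Acvr1b read 13.01, 12.92, 13.01 and 13.06 in the hypomorph pools, against 13.38, 13.35, 13.20 and 13.24 in the wild type pools, again with no overlap. Its ratio was -0.29 ± 0.13 (n = 4, adjusted p = 0.0190, limma), but its other probe was at 0.07 ± 0.07 and was not called (adjusted p = 0.293). With median centring the ratio of Acvr1b was 0.00 (adjusted p = 0.988), and with the scanner's processed signals it kept its sign and was not called. The related type 2 receptor Acvr2b was at -0.11 ± 0.03 and the type 1 receptors Acvr1 and Acvrl1 at 0.08 ± 0.07 and -0.06 ± 0.11, none called (adjusted p = 0.0971, 0.257 and 0.455, limma).

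The paired TGF-beta receptors were called in opposite directions. Tgfbr1, the type 1 kinase, had ratios of 0.24, 0.17, 0.29 and 0.14 and a mean of 0.21 ± 0.07 (n = 4, adjusted p = 0.0230, limma). Tgfbr2, the type 2 kinase that binds the ligand first, had ratios of -0.12, -0.32, -0.09 and -0.35 and a mean of -0.22 ± 0.13 (n = 4, adjusted p = 0.0431). Each gene had the same sign on 4 of 4 arrays, and in both the pools of the 2 genotypes overlapped in signal. The other tested probe of Tgfbr1 was at -0.05 ± 0.17 and that of Tgfbr2 at -0.12 ± 0.10, neither called (adjusted p = 0.654 and 0.118). Both were dim, with a mean log2 brightness of 6.64 and 7.74, against 12.63 and 15.12 for the brightest probes. With median centring Tgfbr2 turned to 0.32 (adjusted p = 0.0076), so its direction rests on the scaling.

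Eng, a TGF-beta co-receptor of endothelium, had ratios of -0.07, -0.16, -0.24 and -0.20. The mean was -0.17 ± 0.07 (n = 4, adjusted p = 0.0446, limma), and it was 0.06 with median centring. Of 8 endothelial markers, 4 were called lower and 1 higher, against 13.0% lower and 13.6% higher of all genes. Their median was -0.16 (0.31 with median centring). The summed signal of the 6 with values on every array was 132100 to 149500 in the hypomorph pools and 163800 to 169600 in the wild type pools, without overlap, and all 8 were well above background on 4 arrays in both channels. Their part in the Eng result was not tested. The other co-receptor, Tgfbr3 or betaglycan, was at -0.16 ± 0.09 and was not called (adjusted p = 0.0626, limma).

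Among the BMP receptors, Bmpr1a was at 0.04 ± 0.06 and Bmpr1b at -0.11 ± 0.07, neither called (adjusted p = 0.544 and 0.121, limma). Bmpr2, the main BMP type 2 receptor, was at -0.04 ± 0.13 by its brightest probe and was not called (adjusted p = 0.686). A second Bmpr2 probe, at chr1:59819627-59819686 in mm8, was called lower at -0.29 ± 0.13 (n = 3, adjusted p = 0.0342), and the remaining one was at -0.13 ± 0.12 (adjusted p = 0.138). These probes thus disagreed on the call.

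**Figure D3:**
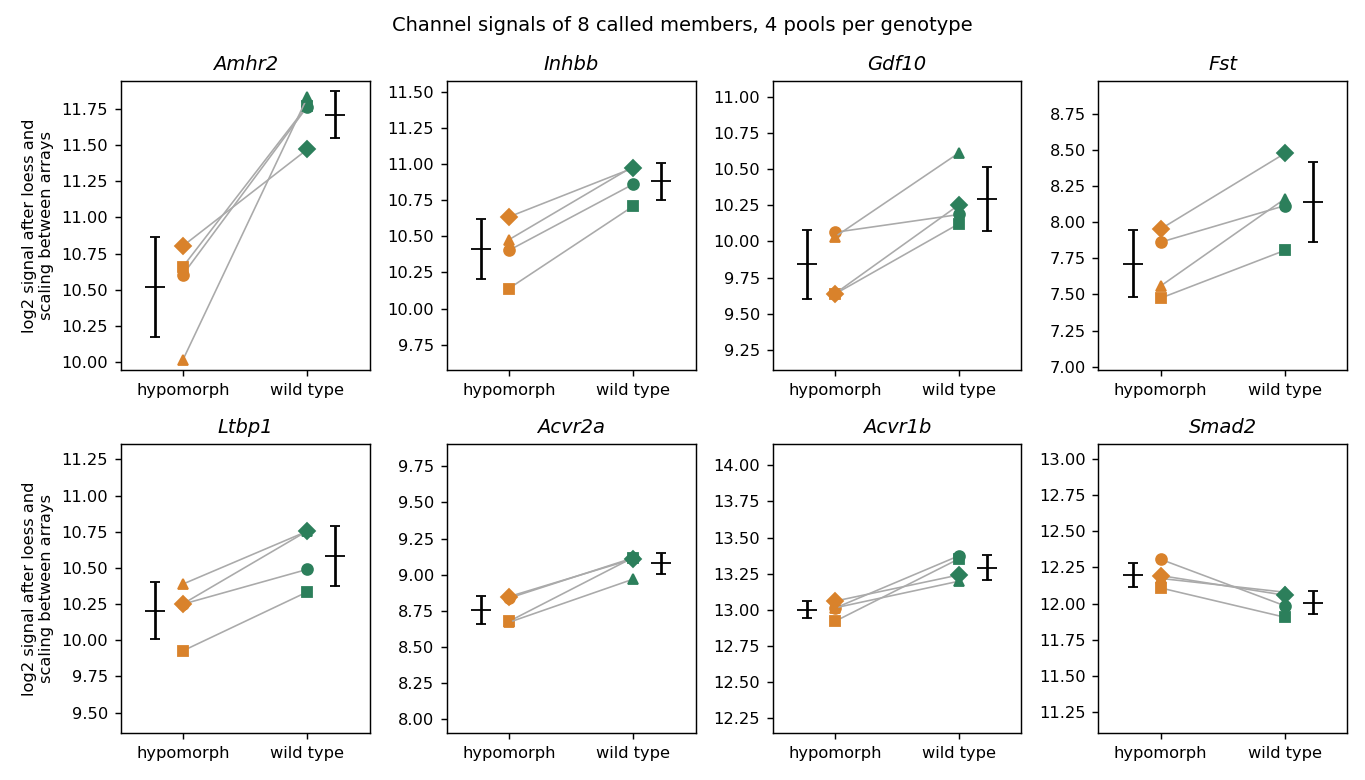
Log2 channel signals of 8 called genes in the hypomorph (orange, left) and wild type (green, right) pool of each array, joined by lines, with mean and SD beside them. Each panel has its own axis of the same height, 2 log2 units. Every line runs the same way within a panel, up to the wild type for 7 genes and down to it for Smad2.

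Among the 9 tested extracellular regulators, none was called higher and 2 lower (22.2%), against 13.6% higher and 13.0% lower of all genes. The lower ones were the activin antagonist Fst and the latent TGF-beta binding protein Ltbp1. At an unadjusted p under 0.05 limma gave 1 higher and 2 lower, against 4431 higher and 4498 lower of all 20623 genes. Median centring gave 4 higher and 2 lower calls, where 52.6% of all genes were called in either direction. The fit without replicate 2 gave no call in either direction, where 6.74% of all genes were called. Follistatin, made from Fst, binds activins and holds them away from their receptors. Fst read 7.86, 7.47, 7.56 and 7.95 in the hypomorph pools, against 8.11, 7.81, 8.16 and 8.48 in the wild type pools. On each array the hypomorph pool was lower, but the highest hypomorph value lay above the lowest wild type value. The ratio was -0.43 ± 0.16 (n = 4, adjusted p = 0.0099, limma). Inhbb and its antagonist Fst were thus both lower, by 1.38-fold and 1.35-fold.

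Ltbp1 holds latent TGF-beta in the matrix. It read 10.25, 9.93, 10.39 and 10.25 in the hypomorph pools, against 10.49, 10.33, 10.75 and 10.76 in the wild type pools, lower on each array though the groups overlapped. The ratio was -0.38 ± 0.11 (n = 4, adjusted p = 0.0073, limma), and the other probe was at -0.12 ± 0.19 and was not called (adjusted p = 0.284). That probe had a mean log2 brightness of 7.18, against 10.40 for the brightest. The related Ltbp3 and Ltbp4 were at -0.01 ± 0.05 (n = 3) and 0.13 ± 0.07, neither called (adjusted p = 0.877 and 0.0814, limma). Bmp1, a metalloprotease that cleaves procollagen and chordin, was at -0.11 ± 0.21 (adjusted p = 0.360). Its other probe was at 0.13 ± 0.08, above 0 on each array, and was not called (adjusted p = 0.0910, limma).

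The BMP antagonists Nog and Chrd were at -0.01 ± 0.14 and 0.12 ± 0.13, and Chrdl1 was at 0.16 ± 0.23 (n = 3). The tested Chrdl1 probe was dim, with a mean log2 brightness of 7.24. The other Chrdl1 probes were not well above background on any array in either channel. Bmper, which binds BMPs in the matrix, was at -0.05 ± 0.09, and its other probe gave -0.05 ± 0.09 as well. None of these 4 was called (adjusted p between 0.175 and 0.896, limma). Grem1, another BMP antagonist, was not well above background on any array in either channel. Fstl1 and Fstl3, relatives of follistatin, had too few arrays with unmarked spots to be tested. With marked spots kept, Fstl1 was at 0.13 ± 0.08 and Fstl3 at 0.02 ± 0.06, neither called (adjusted p = 0.0870 and 0.724, limma).

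Of the 7 Smad genes, limma called 2 higher and none lower, against 13.6% higher and 13.0% lower of all genes. At an unadjusted p under 0.05, 3 Smads were higher and 2 lower, against 4431 higher and 4498 lower of all 20623 genes. Median centring gave 6 higher calls, while the processed signals, and the fits without replicate 2, 3 or 4, gave no call in either direction. Of all genes, 52.6% were called with median centring and 19.9% with the processed signals. Without replicate 2, 3 or 4 the shares of all genes were 6.74%, 9.55% and 18.4%. Smad2 and Smad3, which carry TGF-beta and activin signals, were the called ones. Smad2 read 12.31, 12.11, 12.17 and 12.19 in the hypomorph pools, against 11.98, 11.91, 12.08 and 12.06 in the wild type pools. All hypomorph pools lay above all wild type pools, and the ratio was 0.19 ± 0.10 (n = 4, adjusted p = 0.0441, limma). Smad3 had ratios of 0.30, 0.16, 0.14 and 0.14, with a mean of 0.19 ± 0.08 (n = 4, adjusted p = 0.0362). Replicate 1 stood above the others, and the pools overlapped in signal. The 2 other Smad3 probes gave nearly the same means, 0.21 ± 0.14 and 0.18 ± 0.12, and neither was called (adjusted p = 0.0562 and 0.0618).

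Smad4, the shared partner of the other Smads, was at -0.14 ± 0.07 and was not called (adjusted p = 0.0679, limma). Smad1 and Smad5, which carry BMP signals, were at -0.10 ± 0.03 and 0.04 ± 0.02, neither called (adjusted p = 0.102 and 0.517). The other Smad1 probe lay on the other side of 0, at 0.12 ± 0.20, and was not called (adjusted p = 0.282, limma). One of the 2 other Smad5 probes, at chr13:56747265-56747324 in mm8, was called higher at 0.27 ± 0.07 (n = 4, adjusted p = 0.0107), while the remaining one was at -0.06 ± 0.04. The inhibitory Smad6 and Smad7 were at 0.17 ± 0.10 and 0.09 ± 0.12, neither called (adjusted p = 0.0589 and 0.276). The median over the 7 Smads was 0.09, and no alternative moved it below 0.

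Among the target genes, Id1 was called higher. Id1, Id3 and Id4 encode proteins that block basic helix-loop-helix transcription factors, and BMP signals induce Id1 and Id3 directly. Id1 read 15.19, 15.17 and 15.27 in the hypomorph pools, against 14.90, 14.94 and 14.84 in the wild type pools of replicates 2, 3 and 4. The groups did not overlap, and the ratio was 0.31 ± 0.10 (n = 3, adjusted p = 0.0223, limma). A second Id1 probe, which shares most of its target with the first (chr2:152428741-152428800 and chr2:152428751-152428810 in mm8), was also called. It had ratios of 0.31, 0.35, 0.27 and 0.42 and a mean of 0.34 ± 0.07 (n = 4, adjusted p = 0.0061). With the scanner's processed signals the brightest probe was at 0.30 and was not called (adjusted p = 0.0539).

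Id3 had unmarked spots on 2 arrays and was not tested. With marked spots kept, its ratios were 0.42, 0.40, 0.30 and 0.29. The mean was 0.35 ± 0.07 (n = 4), which was called higher in that fit (adjusted p = 0.0048, limma). Id4 was at -0.08 ± 0.17, with 2 arrays on each side of 0, and was not called (adjusted p = 0.436). Its other probe was at 0.01 ± 0.18 and was not called either. Tgfbi, a matrix protein named for its induction by TGF-beta, was at 0.18 ± 0.12 (n = 3) and was not called (adjusted p = 0.103).

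A wider list of 77 genes of the same pathways held 63 tested genes, of which 10 (15.9%) were called higher and 12 (19.0%) lower, against 13.6% and 13.0% of all genes. Their median ratio was -0.004. Its 15 tested target genes were split, with 5 called higher and 5 lower, where 26.6% of all genes were called in either direction. The list was chosen with earlier results of these data known, so its counts are not an independent comparison with all genes. Ccn2, or connective tissue growth factor, is often used as a readout of TGF-beta. It had ratios of -0.84, -0.81, -0.74 and -0.66 and a mean of -0.76 ± 0.08 (n = 4, adjusted p = 0.0012, limma). Hey1, a Notch and BMP target, was at -0.49 ± 0.11 (n = 3, adjusted p = 0.0083). Snai2, a transcription factor of mesenchymal cells, was called higher at 0.42 ± 0.09 (n = 4, adjusted p = 0.0048). Id2, singled out after its values were seen because it belongs to the same family as Id1, was called higher at 0.36 ± 0.09 (n = 3, adjusted p = 0.0151). With median centring Ccn2 was at -0.18 and Hey1 at -0.01, and neither was called.

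**Figure D4:**
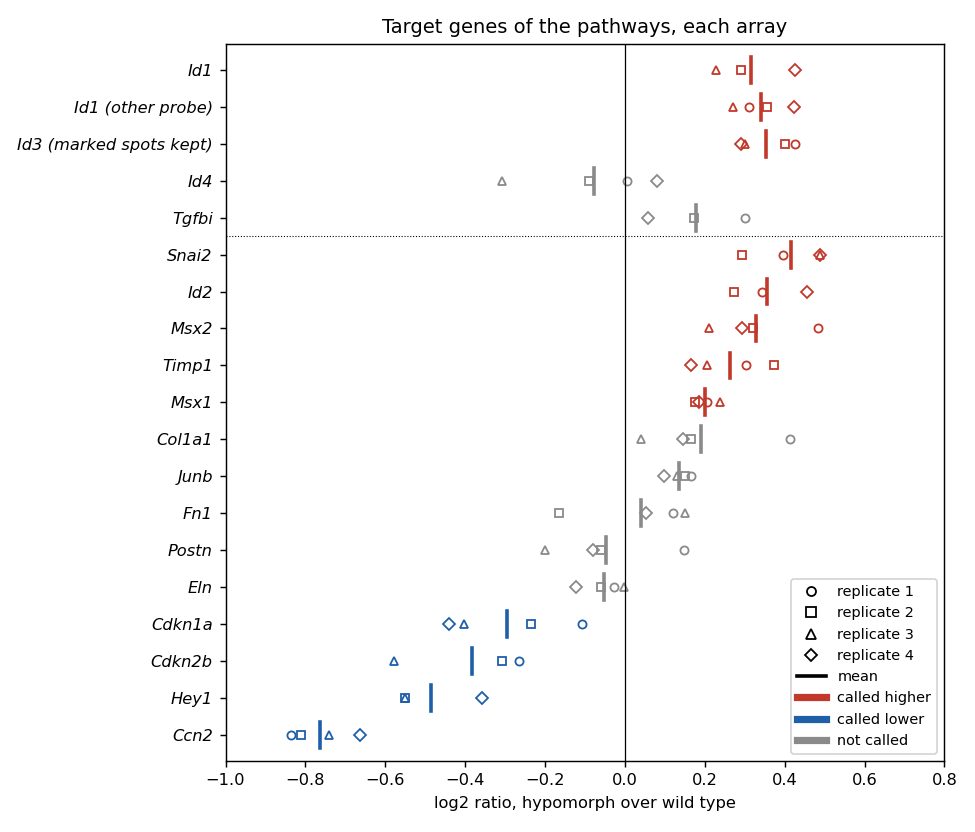
Log2 ratio of hypomorph over wild type on each array (symbols) and its mean (bar) for target genes: pathway members above the dotted line and further targets below it. Id1, Id3 and Id2 lie above 0 on every array with a value, and Ccn2 lies below -0.5 on every array.

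Outside the targets, the fibrillin Fbn2, a matrix scaffold for latent growth factors, was called higher at 0.73 ± 0.12, and the follistatin relative Fstl4 at 0.48 ± 0.13 (n = 4, adjusted p = 0.0016 and 0.0052, limma). Crim1, a membrane protein that binds BMPs, was called lower at -0.53 ± 0.06 (n = 4, adjusted p = 0.0019). Furin, the protease that cuts many TGF-beta family precursors, was at -0.40 ± 0.07 (n = 4, adjusted p = 0.0041), but at 0.05 with median centring. Among the ligands, Gdf5 was lower at -0.70 ± 0.06 and Nodal at -0.22 ± 0.09, and the Nodal antagonist Lefty1 was higher at 0.30 ± 0.20 (n = 4, adjusted p = 0.0012, 0.0243 and 0.0404, limma). The type 1 receptor Acvr1c was higher at 0.31 ± 0.11 (n = 4, adjusted p = 0.0137). Of the intracellular regulators, the ubiquitin ligase Nedd4l was lower at -0.31 ± 0.07 and the TGF-beta feedback inhibitor Pmepa1 higher at 0.17 ± 0.08 (n = 4, adjusted p = 0.0080 and 0.0473, limma).

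Without single arrays, Pmepa1 missed the threshold without any 1 of the 4 (adjusted p between 0.0719 and 0.131, limma). Nodal missed it without replicate 2, 3 or 4 (between 0.0664 and 0.0827). Lefty1 missed it without replicate 2 or 3 (0.114 and 0.117), as did Acvr1c (0.0611 and 0.0564). Nedd4l and Id2 missed it without replicate 2 (0.0559 and 0.0555), where Id2 was read by another of its probes. For Hey1 the only fit possible with an array left out removed replicate 1, where it had no value.

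Of the 16 called pathway genes, Amhr2 and Inhbb kept their call under all 17 alternatives. The ratio of Amhr2 then ran between -1.36 and -0.98 and that of Inhbb between -0.51 and -0.27. For Bmp3 the one fit possible with an array left out removed replicate 3, where it had no value, so none of its own values was left out. Id1 stayed called without any 1 of the 4 arrays, but without replicate 2, 3 or 4 it was read by its second probe. Acvr2a and Ltbp1 missed the threshold without replicate 2 (adjusted p = 0.0501 and 0.0521, limma), and Fst missed it there by a smaller margin. Gdf10 missed it without replicate 2, 3 or 4 (adjusted p between 0.0556 and 0.0857). Acvr1b missed it without replicate 2 or 3 (0.0882 and 0.0523) and Tgfbr1 without replicate 2 or 3 (0.0872 and 0.0992). The rest missed it without replicate 2, 3 or 4, with adjusted p between 0.0657 and 0.122 for Bmp2, 0.117 and 0.162 for Eng, 0.0729 and 0.162 for Tgfbr2, 0.0750 and 0.117 for Smad3, and 0.0584 and 0.126 for Tgfb1. Smad2 missed it without any 1 of the 4 arrays (between 0.0617 and 0.149). Median centring moved 8 of the other called ratios by over 1.5 times: it gave -0.28 for Inhbb, -0.29 for Gdf10, -0.20 for Ltbp1, 0.34 for Tgfb1, 0.47 for Tgfbr1, 0.43 for both Smad2 and Smad3 and 0.78 for Id1. With the scanner's processed signals Tgfb1, Bmp2, Acvr1b, Tgfbr2, Eng, Smad2, Smad3 and Id1 kept their sign and missed the threshold, and with an offset of 16 Tgfbr2, Eng and Smad2 did. Averaging a gene's probes gave -0.27 for Inhbb and -0.25 for Ltbp1, both still called, and 0.08 for Tgfbr1, -0.11 for Acvr1b and -0.17 for Tgfbr2, which were not. These averages gave the dim probe of each gene the same weight as the brightest. With marked spots kept, Acvr2a was read by another of its probes, at -0.19, and was still called. Among all genes, 6.74% were called without replicate 2, 9.55% without replicate 3, 18.4% without replicate 4 and 29.8% without replicate 1, against 26.6% with all 4.

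**Figure D5:**
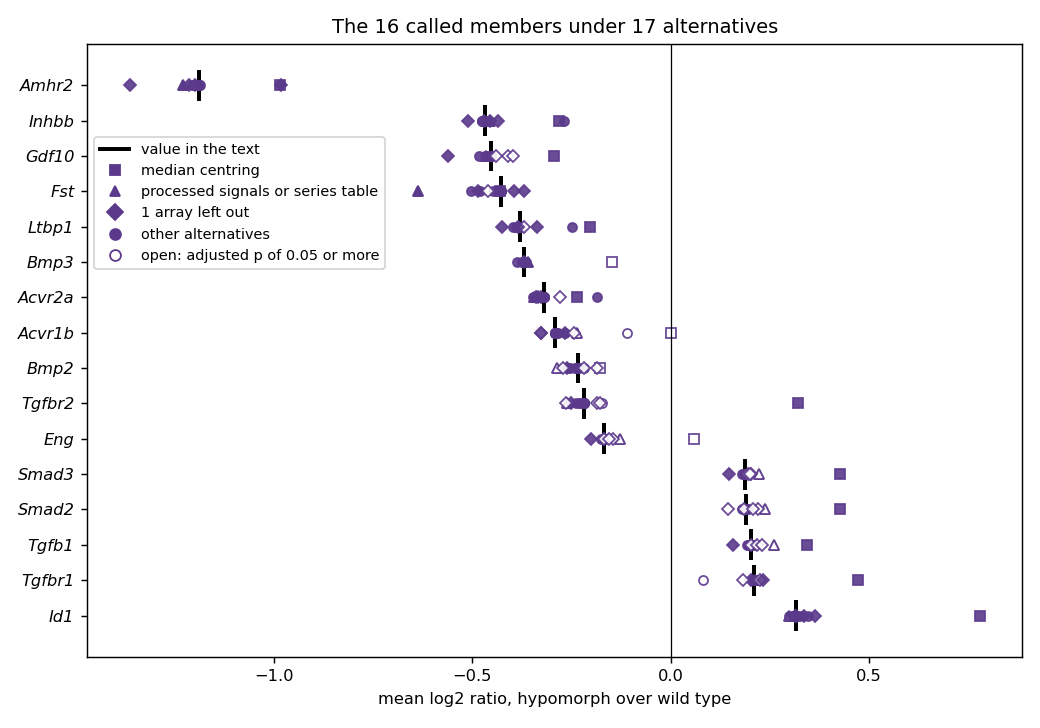
Mean log2 ratio of hypomorph over wild type of the 16 called genes under the 17 alternatives (symbols), beside the value in the text (black bar). Open symbols have an adjusted p of 0.05 or more. The symbols of Amhr2 and Inhbb are all filled, and median centring (squares) lies to the right of the bar for nearly every gene.

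The other marker lists were checked by their counts, beside 13.6% called higher and 13.0% called lower of all genes. Of 7 tested lung epithelial markers 3 were called higher, of 6 smooth muscle markers 1 higher, of 3 cartilage markers 1 higher, of 6 fibroblast markers 1 lower and of 5 macrophage markers 2 lower, while none of 5 cardiac muscle or 3 liver markers was called by limma. At an unadjusted p under 0.05, 2 of the cardiac muscle markers were lower and 1 of the liver markers higher. Of all 20623 genes, 4498 were lower and 4431 higher at that threshold. The tested lung epithelial, endothelial and mesothelial genes were well above background in every pool. Their part in the pathway results was not tested.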

How the data were processed

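Total RNA of 4 hypomorph and 4 wild type pools of mouse fetal lung was hybridised to 4 two-colour Agilent arrays, which lay on 1 slide and in 1 scan, so no batch could be fitted. Agilent Feature Extraction 9.5.1 quantified the scans, per the submitters' processing notes. In the deposited files the mean, local background and processed intensities of both channels are intensities on a linear scale, and the processed ones are background-subtracted and dye-normalized, per the file headers. A log10 ratio of the channels is also among the deposited columns and was not used. The deposited series table holds log2 values that equal log2 of processed red over processed green on each array within 0.001. This settles its scale and direction, with no centring, and its column medians lay between -0.05 and -0.00.

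Background was removed by normexp with an offset of 50 in limma 3.58.1 under R 4.3.3, after which loess with a span of 0.3 was run within each array, with weight 0 for control spots. Control spots and spots with outlier marks were left out, and spots of a probe were averaged. A probe was tested if it was well above background in 1 channel or both on 3 or more arrays and had values on 3 or more. Each probe's ratio was tested against 0 in 1 fit over 30008 probes, with Benjamini-Hochberg adjustment. Signals per channel are after loess and Aquantile scaling between arrays, and signals of different probes are not comparable. Of the 80 pathway probes, 70 matched a RefSeq accession and all 70 gave the same symbol. Probe positions are in mm8 as deposited, and exon or UTR annotation of that build was not used here.

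The members and the lists were chosen with earlier results of these data known. All members could be named, called ones in full. Of the wider list, the 4 called genes with the smallest p in each role were named, and any other is said to be singled out. A gene of that list which the rule took is not reported here, though the counts include it. The labels call the 4 replicates biological. In 10 simulated tables of 30008 probes, 3.4% of probes changed 1.2-fold and 62.7% of those changed 1.5-fold were called, none with the wrong sign, and 2.65% of calls were false. Few probes changed in them, so these rates need not hold for the arrays themselves. Alternatives were the processed intensities, the series table, other background corrections, spans and scalings, other filters and probe rules, another variance model and leaving out each array. The series table repeats the processed intensities, so any count out of the 17 alternatives holds that result 2 times.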

Additional observations from a re-analysis of the deposited data

Results flagged for a closer look

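In 3 of 59 genes with 4 values, 1 array stood apart from the other 3 by Dixon's criterion, which chance alone meets in about 1 of 20 such groups. Smad3 had a log2 ratio of hypomorph over wild type of 0.30 on replicate 1, against 0.14 to 0.16 on the others. Gdf5 had -0.62 on replicate 4, against -0.73 to -0.72. Acvr1c had 0.47 on replicate 4, against 0.23 to 0.27. In each case all 4 arrays lay on the same side of 0.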

How the results depend on the processing

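Median centring gave 22 pathway genes higher and 6 lower, and 28 related genes higher. The processed signals and the series table gave 1 pathway gene higher and 7 lower, where 19.9% of all genes were called in either direction. With 1 array left out, pathway calls ran from 1 to 4 higher and 2 to 11 lower, and related calls from 3 to 9 higher and 5 to 16 lower, with the low end without replicate 2 (for higher pathway calls also without replicate 3). Among genes called by the fit in the text or by the alternative, the sign turned with median centring, at 0.20 for Acvrl1, 0.0016 for Acvr1b, 0.32 for Tgfbr2, 0.47 for Bmpr2, 0.059 for Eng, 0.24 for Bmper, 0.58 for Ltbp3, 0.26 for Bmp1, 0.22 for Smad1, 0.12 for Msln and 0.055 for Furin. The median of all genes was then 0.13, and the cause was not tested. Genes called by neither also changed sign under other alternatives, such as Bmp7 with the processed signals (0.01) and Nog without replicate 4 (0.05). Of the 16 calls, 16 held with no background correction, a loess span of 0.1, scaling between arrays, the stricter filter, marked spots kept, 1 probe a gene and the trended variance, 15 without a filter, 13 with an offset of 16 or the mean of a gene's probes, and 8 with the processed signals. Each array's ratio pairs its 2 pools, so the test of the ratios against 0 was the paired analysis, and no other pairing was fitted. No dye swap, second slide or probe sequence was used here.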
